A study of Vitis vinifera with 6 samples.

Results

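The 75 genes described here were those whose transcript level, read as FPKM, reached 1000 in each of 6 RNA-Seq libraries of grapevine terminal buds. They were selected on these measured levels out of 29971 listed genes, so their abundance is a description and is not tested. RNA was sequenced from terminal buds of the colchicine-induced autotetraploid (4X) of ‘Jingyanjing’, a Vitis vinifera grapevine, and of the diploid (2X) from which it was derived, with 3 libraries of each ploidy. All vines received the same standard care, and 4X vines shed their terminal buds, a trait called self-pruning. The study propagated its autotetraploids from several lines, and the labels do not say which lines a library holds. By the study's account, each library was a pool of terminal buds from independent vines, taken about a week before 4X vines shed theirs. The p-values thus measure the spread between such pools. FPKM scales the fragments of a transcript by its length and by the mapped fragments of the library. The table holds no counts, so the depth behind each value is unknown, and only replicate spread was used as error. Total FPKM per library ranged from 1028187 to 1125409. Over all genes, 4X replicate 1 stands apart from the other 4X libraries. The limma test described further on called 16 genes with it and 754, or 4.16% of the genes tested, without it, so results are also given without this library.

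FPKM is a relative measure, so a transcript that takes a large part of a library lowers the values of all others. In growing shoot tips of plants, the most abundant messenger RNAs commonly encode proteins that every dividing cell makes in bulk, such as ribosomal proteins, elongation factors, histones and the cytoskeleton, along with cell wall proteins and the photosynthetic proteins of young leaves. The identifiers of the members carry no name in the sources used here, with 1 exception, so no role is given to the other 74. In bulk buds, fewer cells of a type and less RNA per cell cannot be told apart.

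The exception was VIT_04s0044g00580, an actin, which polymerizes into the filaments of the cytoskeleton and which the study used as the reference gene of its quantitative PCR. The primers of that assay are shown because they are the study's own probe of a member, and each is 20 bases long, written 5′ to 3′.
Actin forward primer: cttgcatccctcagcacctt
Actin reverse primer: tcctgtggacaatggatgga
Actin had 1234, 1070.2 and 1021 FPKM in the 4X libraries 1, 2 and 3, against 1239, 1147 and 1292 FPKM in the 2X libraries. The ploidies overlapped, since 4X replicate 1 lay among the 2X values, and 4X replicates 2 and 3 lay below all of them. The log2 fold change of actin, given here and throughout as 4X minus 2X on the scale of log2(FPKM + 1), was -0.15 (SE 0.13, limma, adjusted p = 0.666). Its level varied little between libraries, with the 10th smallest within-ploidy SD among the 75 (0.118 on the log2 scale), and it stood at place 69 by mean.

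Together the members, a small fraction of the listed genes, held a large part of each library. Their summed share was 16.5, 16.9 and 15.5% in the 4X libraries, against 17.5, 19.1 and 15.7% in the 2X libraries. The mean share was 16.3 ± 0.714% in 4X and 17.4 ± 1.74% in 2X (SD, n = 3 each), a difference of -1.12 percentage points that did not exceed the spread between libraries (two-sided exact permutation test, p = 0.4, smallest possible 0.1). Single libraries moved it, to -0.26 without 2X replicate 2, -0.73 without 4X replicate 3 and -2.001 without 2X replicate 3, and it was -1.21 without 4X replicate 1. One gene, VIT_03s0038g02790, carried a difference of that size by itself. It took 2.03, 3.81 and 0.874% of all FPKM in the 4X libraries, against 4.13, 4.88 and 1.51% in the 2X libraries. With this gene removed from both the members and the total, the other 74 held 14.8, 13.6 and 14.8% in 4X and 13.9, 14.99 and 14.4% in 2X. The difference was then -0.04 percentage points (exact permutation test, p = 1). The 10 genes with the highest means held 5.89, 7.41 and 5.04% in 4X, against 7.48, 8.89 and 5.15% in 2X, again with overlapping libraries (difference -1.06 percentage points, exact permutation test, p = 0.4). At the other end of the scale, 50% of all FPKM was reached with the 727, 791 and 788 highest genes in the 4X libraries and with 776, 720 and 712 in the 2X libraries (exact permutation test, p = 0.2).

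**Figure D1:**
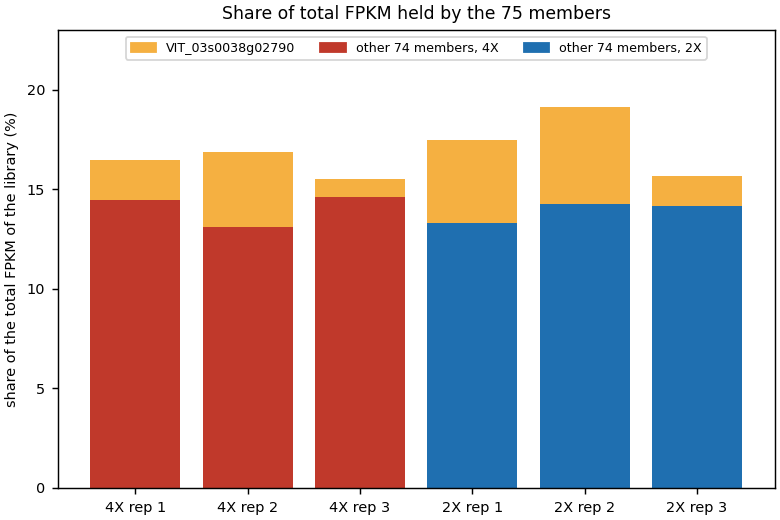
Share of the total FPKM of each library, in percent, held by VIT_03s0038g02790 (orange) and by the other 74 members (red for 4X, blue for 2X), 1 bar a library. The orange part spans 0.874 to 4.88%, while the part of the other members keeps to a narrow band of 13.1 to 14.6% of all FPKM.

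VIT_03s0038g02790 was the most abundant transcript in each of the 6 libraries, with a mean of 30813 FPKM, 5.17 times that of the gene that followed it. It had 22898, 39175 and 9340.0 FPKM in the 4X libraries, against 43205, 53335 and 16925 FPKM in the 2X libraries. Replicate 3 was the lowest library of each ploidy, and the ploidies overlapped. Its highest library stood 5.71-fold above its lowest, the widest range of any member. The log2 fold change was -0.74 (SE 0.69, 95% interval -2.38 to 0.90, limma, adjusted p = 0.690), an interval that includes both a large fall and a rise. The value was -0.18 without 4X replicate 3, -0.41 without 2X replicate 2, -1.21 without 4X replicate 2 and -1.24 without 2X replicate 3. With array weights, where each library has its own weight in the fit, it was -1.86 (limma, adjusted p = 0.0428).

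Behind it the levels fell off in small steps. Member means ran from 1124 to 30813 FPKM with a median of 1626 and quartiles of 1319 and 2367; 7 members averaged 4000 FPKM or more, 26 averaged 2000 or more, and 32 stayed under 1500. VIT_08s0058g01210 had 6305, 5433 and 7190.0 FPKM in 4X, against 4751, 6755 and 5359 FPKM in 2X. VIT_08s0007g00330 had 6338, 5587 and 6221 FPKM in 4X, against 4487, 5435 and 5604 FPKM in 2X. In both genes the lowest library was 2X replicate 1 and the ploidies overlapped, by a wide margin in the first and by 1 library in the second.

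VIT_17s0000g03690 was one of the members whose libraries did not overlap, with 5617, 3909 and 4455 FPKM in 4X, against 5643, 6075 and 6326 FPKM in 2X. The gap was small, since the highest 4X library and the lowest 2X library were nearly level. VIT_18s0072g00380 had 5885, 3796 and 4673 FPKM in 4X, against 4986, 6590.1 and 4604.5 FPKM in 2X, and its lowest library was 4X replicate 2. VIT_05s0020g04110 had 4465, 4003 and 5498 FPKM in 4X, against 3484, 5534 and 3649 FPKM in 2X, with its highest library in 2X. VIT_06s0004g04640 had 4558, 2765 and 3024 FPKM in 4X, against 4117, 4129.8 and 3756 FPKM in 2X. In this gene 4X replicate 1 was the highest of the 6 libraries and the other 4X libraries were the lowest.

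VIT_18s0001g14400 had 3593, 2607 and 3086 FPKM in 4X, against 2659.7, 2798 and 3394 FPKM in 2X, with 4X replicate 2 lowest. The 5 genes that completed the leading 15 by mean, VIT_02s0025g03390, VIT_08s0007g04780, VIT_06s0004g03240, VIT_10s0003g02890 and VIT_05s0020g01170, had values of 2106 to 4390.0 FPKM. The highest of these values was VIT_08s0007g04780 in 2X replicate 3, at 4390.0 FPKM, while the other libraries of that gene lay between 2135 and 2781 FPKM. In VIT_06s0004g03240 the lowest value was 2482 FPKM in 4X replicate 2 and the highest was 3129 FPKM in 2X replicate 3.

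**Figure D2:**
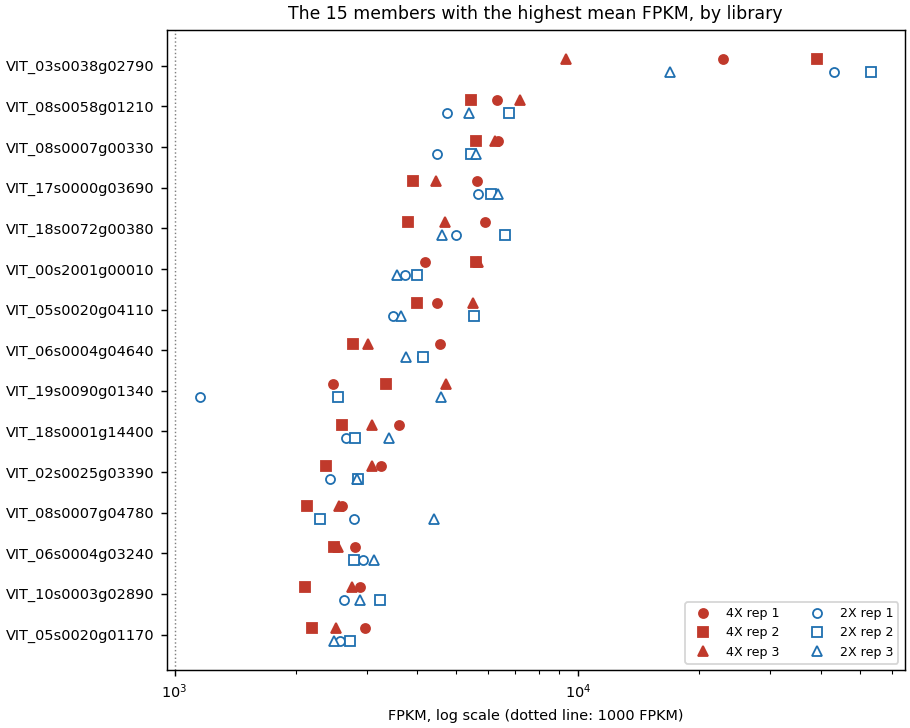
FPKM on a log scale for the 15 members with the highest mean, 1 row a gene, with 4X libraries (filled red) drawn above 2X libraries (open blue) and 1 marker shape per replicate number. VIT_03s0038g02790 stands far to the right at 9340.0 to 53335 FPKM, and it and VIT_19s0090g01340 spread more widely than the rest.

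The order of the members was much the same in both ploidies. Across the 75 genes, which share their libraries and are not replicates, the rank correlation of the 4X means with the 2X means was 0.936. Between single libraries of different ploidy it ran from 0.760 to 0.927, against 0.796 to 0.928 between libraries of 4X and 0.811 to 0.935 between libraries of 2X, so the ranges overlapped. Of the 10 genes with the highest mean in 4X, 9 of them members, 8 were also among the 10 highest in 2X, all members, and of the 20 highest, 16 were shared. A member changed its place among all genes by a median of 5 places, and 38 members moved by at most 5. The largest move was that of VIT_12s0035g01940, at place 46 in 4X and place 80 in 2X, where neighbouring genes differ by little in FPKM. Without 4X replicate 1 the rank correlation of the means was 0.888. A gene set defined by a floor in every library is not the same as the genes with the highest means, and 65 of the 75 highest means in 4X and 61 of those in 2X belonged to members. The floor leaves out genes that fall far in any library, which favours agreement in order. VIT_03s0063g02610, not a member, stood at place 135 in 4X and place 33 in 2X.

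Whether any of these transcripts differed between 4X and 2X was tested with limma, which fits a linear model to each gene and moderates its variance by that of genes of similar level. The fit covered the 18119 genes whose FPKM averaged 1 or more, with p adjusted by the Benjamini-Hochberg method over all of them. None of the 75 was called at an adjusted p under 0.05, where 0.0883% of all genes tested were called. At an unadjusted p under 0.05, 1 member was higher in 4X and 0 were lower, beside 14.3% of all genes tested in either direction. The smallest adjusted p of a member was 0.318. A gene that drops under 1000 FPKM in any library is not on the list. Under a rule on the mean, which keeps such genes, 122 had at least 1000 FPKM and again 0 were called. Of the 47 genes this adds, 29 had a negative log2 fold change and 18 a positive one. The largest falls included VIT_06s0061g01380 (-1.11, limma, adjusted p = 0.373) and VIT_03s0063g02610 (-0.88, limma, adjusted p = 0.249). Rises included VIT_19s0090g01360 (0.67, limma, adjusted p = 0.763) and VIT_14s0108g00440 (0.45, limma, adjusted p = 0.228). In the latter all 4X libraries lay above all 2X libraries. The list thus leaves out some abundant genes with larger estimates than most members. The median log2 fold change was -0.00 over the members and 0.01 over all genes tested, with 36 members positive and 39 negative.

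The data set limits on these differences. The 95% interval of the log2 fold change lay within 1 log2 unit of 0 for 71 of the 75 genes, and within 0.5 for 32. A doubling or halving between the ploidies was therefore outside the interval of most members. For the 32, any change of more than 0.5 log2 units was outside it as well. The median half-width of the intervals was 0.384 log2 units, and changes within the interval of a gene were not resolved. In 60 members the estimate itself was under 0.25 in size. The intervals of 4 members went beyond 1 log2 unit: VIT_03s0038g02790, VIT_19s0090g01340, VIT_01s0010g02030 and VIT_00s2769g00010. With array weights 9 members were called (7 higher, 2 lower), but 23.5% of all genes were called in that fit and 4X replicate 3 carried a weight of 5.11.

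**Figure D3:**
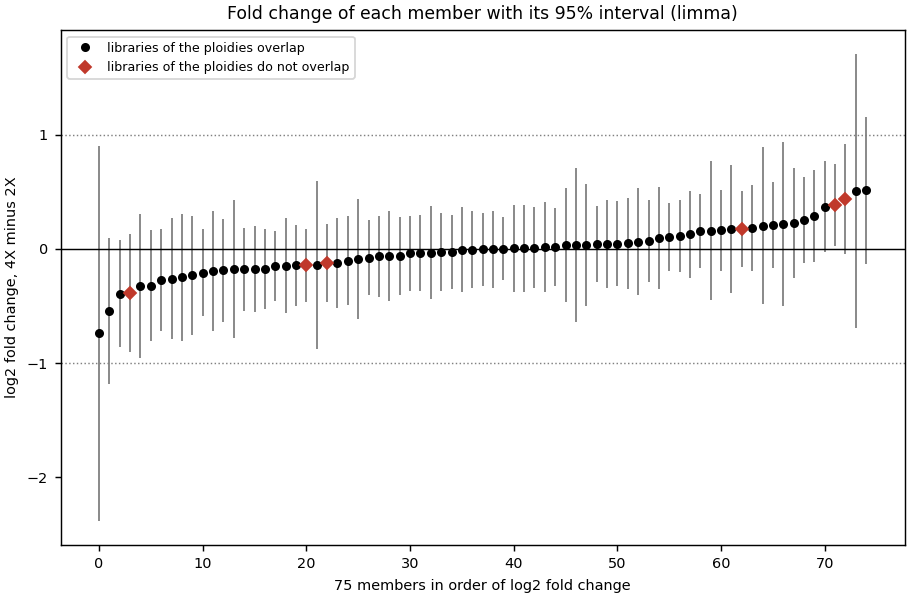
Log2 fold change (4X minus 2X) of each of the 75 members in increasing order, with the 95% interval from limma as a vertical line and dotted lines at 1 log2 unit. Red diamonds mark the 6 members whose 4X and 2X libraries did not overlap, and the points run from -0.74 to 0.51 with all lines but 1 crossing 0.

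The members with the largest estimates were spread over the levels. VIT_18s0072g00800 was the 1 gene with an unadjusted p under 0.05, with 1909.96, 1942 and 2238 FPKM in 4X, against 1371, 1606 and 1694 FPKM in 2X. Its 4X libraries lay above all 2X libraries, and the log2 fold change was 0.38 (SE 0.15, limma, adjusted p = 0.318). VIT_00s2001g00010 had 4167, 5606 and 5661 FPKM in 4X, against 3724, 3997 and 3570.4 FPKM in 2X, with no overlap and a log2 fold change of 0.44 (SE 0.20, limma, adjusted p = 0.393). VIT_00s2769g00010 had 1674, 1818 and 2826 FPKM in 4X, against 1604, 1716 and 1075 FPKM in 2X. Its ploidies overlapped, and the log2 fold change of 0.51 (SE 0.27, limma, adjusted p = 0.443) was 0.28 without 4X replicate 3, its highest library, and 0.30 without 2X replicate 3, its lowest.

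On the lower side, VIT_01s0010g02030 had 2390.5, 1177 and 1829.5 FPKM in 4X, against 2250.5, 2709 and 2629.96 FPKM in 2X. One 4X library lay among the 2X values, and the log2 fold change was -0.55 (SE 0.27, limma, adjusted p = 0.419), or -0.27 without 4X replicate 2. VIT_03s0180g00070 had 2783, 1883 and 2023 FPKM in 4X, against 2866, 2668 and 3130.0 FPKM in 2X, with a log2 fold change of -0.39 (SE 0.20, limma, adjusted p = 0.426). In both genes 4X replicate 1 alone of the 4X libraries was within the 2X range. VIT_17s0000g03690, described above, had a log2 fold change of -0.38 (SE 0.22, limma, adjusted p = 0.477).

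All 4X libraries stood above all 2X libraries in 3 members (background over all genes tested, 11.2%) and below them in 3 (background 8.85%), together 8% of the members. Two-sided exact permutation of 3 against 3 libraries cannot go below p = 0.1 for a single gene. Besides VIT_18s0072g00800 and VIT_00s2001g00010, the higher gene was VIT_11s0016g02690, with 2704, 2505 and 2616 FPKM in 4X, against 2252, 2259 and 2412 FPKM in 2X. Besides VIT_17s0000g03690, the lower genes were VIT_14s0108g00740 and VIT_19s0090g01000. VIT_14s0108g00740 had 2126, 2322 and 2361 FPKM in 4X, against 2611, 2434 and 2366 FPKM in 2X. VIT_19s0090g01000 had 2048, 2084 and 2019 FPKM in 4X, against 2411, 2173 and 2214 FPKM in 2X. These 3 genes were among the steadiest members, and their gaps between ploidies were small, with log2 fold changes of 0.18, -0.12 and -0.14. The counts moved with single libraries, to 18 lower without 4X replicate 1 and to 17 higher without 2X replicate 3.

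How the spread of the members compared with that of other genes changed with the scaling. As deposited, the SD of log2(FPKM + 1) within ploidy had a median of 0.175 over the members, against 0.170 over all genes tested, a value that 41 of the 75 exceeded. After median scaling the medians were 0.185 and 0.171. They were 0.136 over the members and 0.163 over all genes tested after quantile normalization, and 0.138 and 0.185 after rescaling to the genes outside the list. Quantile normalization gives the same value to the same rank in every library, and 58 to 66 members per library stood among the 75 highest. A smaller member SD under it is therefore partly built in. By level, the median was 0.223 for genes that averaged 1 to 10 FPKM, 0.145 at 10 to 100 FPKM and 0.159 at 100 to 1000 FPKM. The median coefficient of variation of the members was 10.9% in 4X and 11.8% in 2X. In 48 members the highest library was less than 1.5-fold above the lowest, and in 8 it was at least 2-fold above.

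The most variable members were VIT_03s0038g02790, with an SD of 0.967, and VIT_19s0090g01340, with 0.776. VIT_19s0090g01340 had 2471, 3339.6 and 4702 FPKM in 4X, against 1158, 2543 and 4576 FPKM in 2X. Its value in 2X replicate 1 was the low point, at place 73 among all genes of that library, while replicate 3 of both ploidies was at place 6. Without 2X replicate 1 its log2 fold change was -0.01, against 0.51 with it. VIT_09s0002g05180 followed with an SD of 0.454 and had 2609.9, 1214 and 1314.5 FPKM in 4X, against 1627, 1634 and 2099.6 FPKM in 2X. VIT_11s0016g00210 had 1394, 2062 and 2858 FPKM in 4X, against 2049, 1930.96 and 1316 FPKM in 2X. The steadiest was VIT_11s0016g02690, with an SD of 0.056.

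**Figure D4:**
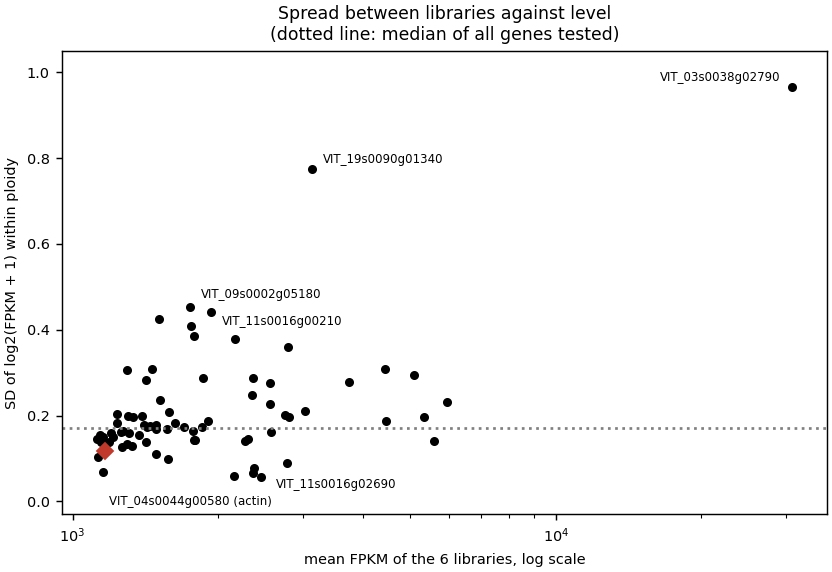
Within-ploidy SD of log2(FPKM + 1) of each member against its mean FPKM on a log scale, 1 point a gene, with the median of all genes tested (0.170) as a dotted line and actin as a red diamond. VIT_03s0038g02790 and VIT_19s0090g01340 lie far above the other members at 0.967 and 0.776, and actin lies at 0.118.

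Part of the variation was shared between the members, library by library. Relative to its own mean over the 6 libraries, the median member stood at 0.10, -0.12 and 0.00 on the log2 scale in 4X replicates 1, 2 and 3, and at -0.10, 0.00 and 0.09 in 2X replicates 1, 2 and 3. Over all genes tested the same medians were within -0.02 to 0.02. 4X replicate 2 was the lowest library for 35 members (46.7%, background over all genes tested 17.2%) and 2X replicate 1 for 25 (33.3%, background 16.3%). The highest library was 2X replicate 3 for 28 members (37.3%, background 17.5%) and 4X replicate 1 for 21 (28%, background 18.6%). Low and high libraries thus occurred in both ploidies. The shift changed with the scaling of the libraries. After quantile normalization, which gives all libraries the same distribution of values, 4X replicate 2 was the lowest for 14 members and 2X replicate 1 for 10, and the median within-ploidy SD was 0.136. Most members are among the highest ranks of each library, so this scaling can remove a shift they share by construction. Median scaling left the counts at 36 and 22. Rescaling to the genes outside the list gave 33 and 13, with median deviations of -0.05 and -0.04 in those libraries.

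Leaving out 4X replicate 1, which stands apart over all genes, also gave 0 called members. In 15 members, 20% of the list, 4X replicates 2 and 3 were below every 2X library while 4X replicate 1 was not, against a background of 9.89%. In genes that averaged 100 to 1000 FPKM the same share was 18.3%. The reverse pattern, higher in 4X replicates 2 and 3 alone, was found in 4 members (background 10.6%). The pattern was looked for after the values had been seen and was not tested. After quantile normalization it held in 9 members (background 9.60%). It held in 16 after median scaling (background 10.2%) and in 13 after rescaling to the genes outside the list (background 7.31%). As deposited, the pattern included actin, VIT_06s0004g04640, VIT_06s0004g03240, VIT_03s0180g00070 and VIT_01s0010g02030, and 4X replicate 2 was the lowest of the 6 libraries in 14 of the 15. Without 4X replicate 1 the log2 fold change of VIT_01s0010g02030 was -0.78 and that of VIT_03s0180g00070 was -0.56, both with limma adjusted p over 0.05 (smallest of any member 0.134).

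**Figure D5:**
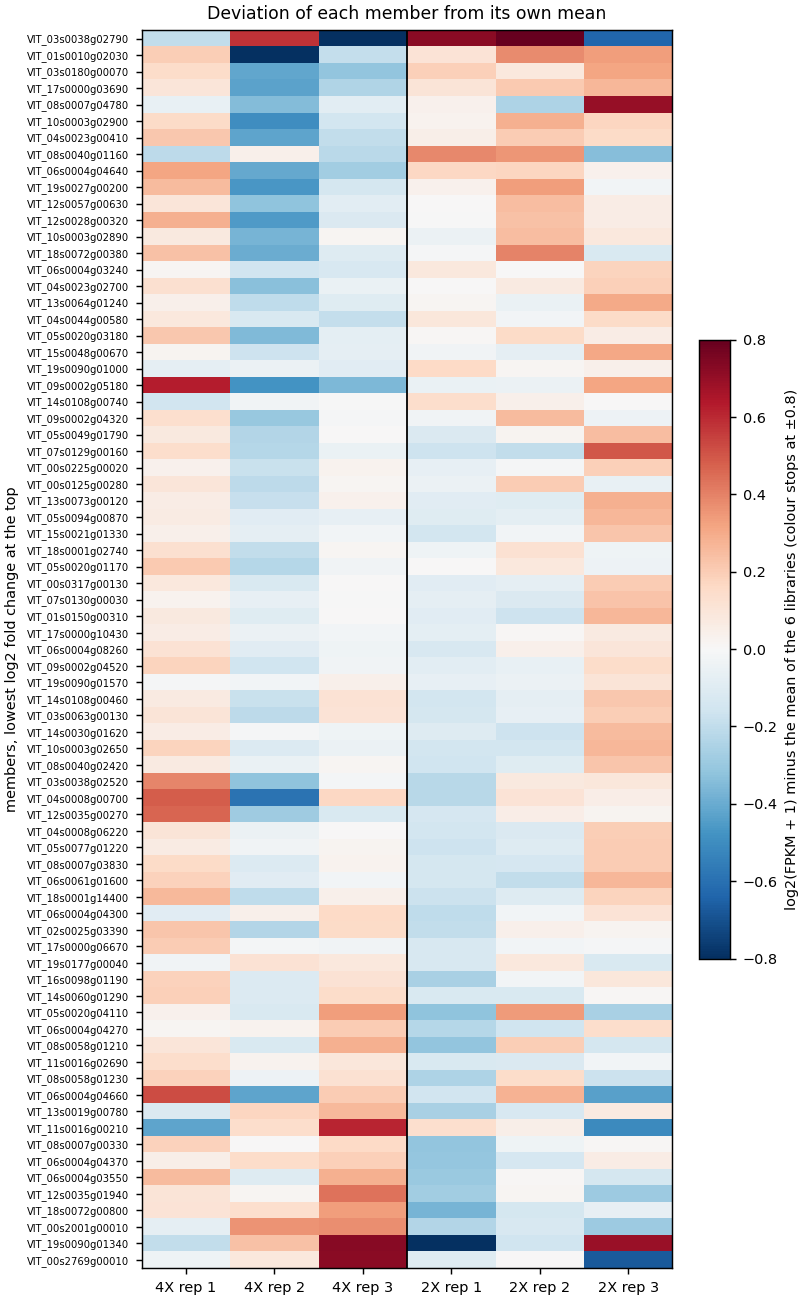
Deviation of each of the 75 members from its own mean over the 6 libraries, on the scale of log2(FPKM + 1), with 4X libraries left of 2X libraries and genes ordered by log2 fold change (lowest at the top). Blue runs down most of the column of 4X replicate 2, the lowest library for 35 members, and red down that of 2X replicate 3, the highest for 28.

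The 1 gene of the shoot tip fixed for describing the tissue was KNAP2 (VIT_18s0001g08380), a homeobox gene of the KNOX family. Some members of this family keep cells of the shoot meristem undifferentiated. With no other tissue to compare, the level of KNAP2 is a description and no check of the label. It had 56.8, 53.6 and 43.2 FPKM in 4X, against 87.3, 63.6 and 80.8 FPKM in 2X, so it was detected in every library, with no overlap between the ploidies (log2 fold change -0.58, limma, adjusted p = 0.195). Its level was far below that of the members. KNAP2 belongs to the hormone and development genes for which the study designed primers, a list chosen on these libraries and so not independent of them. Of the 35 listed genes found in the table, actin was the only member. Of the 33 tested, 0 were called by limma (background 0.0883%), while in 9 all 4X libraries stood above all 2X libraries (background 11.2%) and in 11 below (background 8.85%). The study itself reported hormone genes of this list as changed in 4X, from Cufflinks and quantitative PCR. The count of 0 does not show that they were unchanged. Nearest to a call was ACO1, an ACC oxidase higher in all 4X libraries (log2 fold change 2.26, limma, adjusted p = 0.0573). After actin, the most abundant of the listed genes was IAA16, a repressor of the auxin response in Arabidopsis, with a mean of 353 FPKM at place 523 of all genes.

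Members were listed on all 19 chromosomes and on unplaced sequence, with some close together. By the chromosome number in their identifiers, 9 were on chromosome 6, which is 12.0% of the members and 4.65% of the listed genes, 7 on chromosome 8 and 6 on chromosome 5, while 5 were on unplaced sequence. Of the 9 on chromosome 6, 8 shared the identifier prefix VIT_06s0004. VIT_06s0004g04270, VIT_06s0004g04300 and VIT_06s0004g04370 lay within 10 rows of the table, with rank correlations over the 6 libraries of 0.943 between the first pair and 0.886 between the second, and 2X replicate 1 was the lowest library of each. VIT_06s0004g04240, which is not a member, lay 3 rows before VIT_06s0004g04270, with a rank correlation between the 2 of 0.943. VIT_06s0004g04640 and VIT_06s0004g04660 stood either side of VIT_06s0004g04650, which had 965, 495 and 589 FPKM in 4X, against 757, 839 and 743 FPKM in 2X. The rank correlation of the outer genes was lower, at 0.714, and their log2 fold changes were -0.25 and 0.21. No run of 3 or more consecutive identifiers occurred. VIT_10s0003g02890 and VIT_10s0003g02900 were direct neighbours, and both were lowest in 4X replicate 2 and highest in 2X replicate 2 (rank correlation 0.943 over the 6 libraries). VIT_10s0003g02900 had 2585, 1644 and 2099 FPKM in 4X, against 2369.97, 2824 and 2608 FPKM in 2X. VIT_08s0058g01210 and VIT_08s0058g01230 (rank correlation 0.771) stand either side of 1 gene that was listed at 0 in all libraries. Closeness did not always go with a like order of libraries. VIT_14s0108g00440, not a member, lay 2 rows before the member VIT_14s0108g00460, with a rank correlation of -0.03. Correlations of members far apart are not given, and part of the variation was shared between members. VIT_08s0058g01230 had 1769, 1514 and 1696 FPKM in 4X, against 1312, 1723 and 1378 FPKM in 2X. How reads that map to several places were counted is not given in the sources used here, so values of close neighbours that may be copies of each other are uncertain.

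VIT_19s0090g01340 had a near neighbour outside the list, VIT_19s0090g01360, placed 2 rows further on in the table. This gene had 825, 1444 and 2786 FPKM in 4X, against 316, 1010.3 and 2581 FPKM in 2X. Its libraries stood in the same order as those of VIT_19s0090g01340 (rank correlation 1 over the 6 libraries), with 4X replicate 3 highest and 2X replicate 1 lowest in both. The pair was noticed after the values were seen.

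The limit of 1000 FPKM fell among many genes of similar level. Just inside it were VIT_04s0008g06220 with a lowest library of 1011 FPKM, actin with 1021 FPKM and VIT_13s0019g00780 with 1024 FPKM. Just outside were VIT_07s0005g02160 with 999 FPKM, VIT_11s0103g00220 with 993 FPKM and VIT_17s0000g06980 with 991 FPKM. In all, 47 genes averaged at least 1000 FPKM but fell short in at least 1 library, those just outside among them. Of the 47, 34 fell short in 4X replicate 2, 21 in 2X replicate 1, 18 in 2X replicate 2 and 11 in 4X replicate 3. Only 5 did so in 4X replicate 1 and 4 in 2X replicate 3. In 20 of the 47 a single library decided, and in 12 that library was 4X replicate 2. The members also stood lowest in 4X replicate 2 and 2X replicate 1. In 2X replicate 2, however, the median member stood at 0.00 on the log2 scale. Both counts rest on low values in the same libraries, so they are not independent.

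The 4 highest means outside the list belonged to genes that did not reach the limit in every library. VIT_09s0054g00470 had 999, 2233.5 and 1754 FPKM in 4X, against 1969, 929 and 3004 FPKM in 2X. VIT_04s0008g04430 had 9702 FPKM in 4X replicate 2 and was listed at 0 in the other 5 libraries, so a single library set its mean. VIT_11s0016g05840 had 1537, 986 and 1003 FPKM in 4X, against 1782, 1394 and 2707 FPKM in 2X. The libraries of VIT_09s0054g00470 and VIT_11s0016g05840 overlapped between the ploidies, and no fold is given for the gene listed at 0 throughout 2X. The log2 fold change of VIT_11s0016g05840 was -0.71 (95% interval -1.41 to -0.02, limma, adjusted p = 0.332). VIT_10s0405g00060 had 1402, 2191 and 1561 FPKM in 4X, against 1840.1, 795 and 1335 FPKM in 2X, with 2X replicate 2 alone under the limit.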

How the data were processed

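The authors deposited 1 table of FPKM per gene and library, and the submitters' processing notes name TopHat2 2.0.14 and Cufflinks 2.2.1. The genome build, annotation version, strand handling, treatment of reads with several places and any scaling between libraries are not given in the sources used here, so FPKM were taken as deposited, and 0 columns of values were left out. Ploidy came from the sample labels. The members and lists were chosen with earlier results of these data known.

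Genes whose FPKM averaged at least 1 were fitted with limma 3.58.1 (R 4.3.3) on log2(FPKM + 1), a pseudocount of 1, with a variance trend, two-sided, and a p adjusted by the Benjamini-Hochberg method under 0.05 made a call. Library shares were compared with exact permutation tests (scipy 1.17.1), and summaries and plots used Python 3.11.15, pandas 2.3.3, numpy 2.4.6 and matplotlib 3.10.9. The fit was also run on simulated data in which some of the 18119 genes were changed, with 10 runs per setting. It recovered 57.5% of genes changed by 1 log2 unit and 89.4% of those changed by 2. False calls made up 4.90% and 4.31% of the calls. With no change it called 0 genes. A call of 0 can thus miss real changes of 1 log2 unit.

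Named genes were the 15 highest means, any called member, the 4 largest and 4 smallest log2 fold changes, the 4 largest within-ploidy SDs, the members named in the study's primer table, the 3 nearest genes on each side of the limit and the 4 highest means outside the list. Other genes were named after their values were seen. The RefSeq gene table named 0 members, so planned groups by function were not made. Alternatives were a pseudocount of 0.1, no filter or a filter in either ploidy, 3 scalings, no variance trend, array weights, a replicate block, limits of 500 and 2000 FPKM, a limit on the mean, and leaving out each library.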

Additional observations from a re-analysis of the deposited data

How the results depend on the processing

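No member was called in any alternative except array weights, which called 9. The study states no pairing by replicate number. Deviations of same-numbered libraries correlated at -0.01, -0.05 and 0.09, and those of the other combinations ran from -0.13 to 0.13. With so few libraries these values cannot settle whether the samples were paired. With the replicate block limma called 0 members but also 0 of all 18119 genes tested (smallest adjusted p of a member 0.489), and the share differences stayed at -1.12 and -1.06 percentage points (exact permutation test within pairs, p = 0.25, the smallest it allows). With 1 library left out, limma called 0 members each time. Over all genes it called 754 when 4X replicate 1 was dropped, 3 when 4X replicate 2 was dropped and 0 or 1 for the rest, so most of these counts of 0 say little about the members. The number of members was 263 at a limit of 500 FPKM, 19 at 2000 FPKM and 122 by the mean, and 75 to 87 when 1 library was left out. Members with every 4X library above every 2X library numbered 5 with quantile normalization, 5 with rescaling to the other genes, 7 at 500 FPKM and 3 to 17 when 1 library was left out. Those below numbered 5, 5, 10 and 3 to 18 in the same settings, and 6 by the mean rule. The share of the leading 10 genes differed by 0.16 percentage points, with the sign turned, once the leading gene was removed, and by -2.07 to -0.20 when 1 library was left out. The median within-ploidy SD was 0.136 with quantile normalization and 0.152 to 0.192 when 1 library was left out. Of 449 alternative values for 30 named genes, 420 kept direction and side of the threshold, 8 crossed it with array weights and 21 changed sign, 18 of these when 1 library was left out. The leading gene has no value with quantile normalization, since it ranks highest in every library and its difference is then 0 by construction. With quantile normalization VIT_08s0058g01210 stood at -0.0052 on the log2 scale. With array weights VIT_07s0005g02160 stood at 0.10 and VIT_09s0054g00470 at 0.11. When 1 library was left out, the log2 fold change ran from -0.011 to 0.98 for VIT_19s0090g01340, from -0.049 to 0.18 for VIT_18s0001g14400, from -0.14 to 0.074 for VIT_05s0020g01170, from -0.032 to 0.49 for VIT_11s0016g00210 and from -0.49 to 0.062 for VIT_09s0002g05180. Near the limit it ran from -0.024 to 0.15 for VIT_04s0008g06220, from -0.14 to 0.12 for VIT_07s0005g02160, from -0.040 to 0.19 for VIT_11s0103g00220 and from -0.63 to 0.22 for VIT_09s0054g00470. The cause was not tested.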
